A study of Mus musculus with 6 samples.

Results

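The 33 genes described here encode the proteins that form and dissolve blood clots, with their inhibitors and cell surface receptors. They were chosen by name from the 55291 genes of the expression table, without a cut on measured values. All 33 passed the filter on low levels that left 16506 genes for testing. They fall into 20 genes whose products the liver secretes into plasma and 13 genes of tumour, vessel and myeloid cells. Polyadenylated RNA was sequenced in bulk from 6 mouse liver tumours, described as RIL-175/PD-1R tumours and all taken after anti-PD-1. RIL-175 is a mouse liver cancer line, PD-1R is not explained in the labels, and anti-PD-1 blocks PD-1, a brake on T cells. The Cre_PD1 group held 3 tumours from LysM-Cre mice, in which the lysozyme M gene drives Cre recombinase in myeloid cells and which serve as the controls. The MKO_PD1 group held 3 tumours from Trem2-MKO mice, which lack Trem2, a lipid-sensing receptor of macrophages, in the myeloid cells. The design text counts 3 mice per genotype. Age and sex of the mice and the deleted stretch of Trem2 are not given in the sources used here, and no tumour without anti-PD-1 was analysed.

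Clotting begins when tissue factor, the product of F3, meets factor VII from plasma. A chain of serine proteases then activates prothrombin, and the thrombin formed turns fibrinogen into fibrin and signals to cells through protease-activated receptors. Plasmin, cut from plasminogen by the tissue-type and urokinase-type activators, dissolves the fibrin. Hepatocytes secrete most of the soluble factors, whereas tissue factor, thrombomodulin, the urokinase receptor and the thrombin receptors sit on tumour, vessel, stromal and myeloid cells.

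Levels are given in TPM, transcripts per 1000000 after scaling each library to that total, which are per length and so can be compared between genes. Reads recovered from the deposited values, over the genes that came out as whole reads, numbered 26747481 to 34265123 per library. Trem2, the targeted gene, stood at 10.5, 16.5 and 14.9 TPM in the Cre_PD1 libraries and at 7.68, 17.97 and 6.81 TPM in the MKO_PD1 libraries (here and below in the order of replicates 1, 2 and 3). The groups overlapped, and reads over the whole gene do not measure the deletion. The 19 hepatocyte markers made up 1.25, 2.57 and 2.76% of the TPM of the Cre_PD1 libraries, against 13.5, 3.36 and 9.44% in MKO_PD1. The 8 tumour epithelium markers, keratins and Spp1 among them, made up 2.49, 1.83 and 1.82% in Cre_PD1, against 0.250, 0.995 and 0.671% in MKO_PD1. Spp1 was the largest of them in every library, at 11070, 9801 and 10716 TPM in Cre_PD1 and 1072, 5332 and 3179 TPM in MKO_PD1. The groups did not overlap for 5 of the 8, Spp1 included, and overlapped for Krt7, Epcam and Cdh1. No marker of either list was at 0 in any library. MKO_PD1 replicates 1 and 3 thus stood apart from the other 4 libraries in liver transcripts. In bulk RNA, fewer cells of a type and less RNA per cell cannot be told apart. The cells that made each transcript, those of the marker lists such as Spp1 included, were not identified.

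The liver-made clotting genes were higher in MKO_PD1 for 20 of 20 members, where 27.1% of all genes tested were higher. Their median log2 difference, MKO_PD1 minus Cre_PD1, was 1.76, against -0.42 over all genes tested. Among the genes of tumour, vessel and myeloid cells 9 of 13 were lower, where 72.9% of all genes were lower, and their median was -0.57. With median-of-ratios scaling, which divides each library by its median ratio to the average library and put the median of all genes at -0.01, 7 of the 13 were lower and 20 of 20 liver-made genes were still higher. The groups were separate, meaning that no library of one lay within the range of the other, and higher in MKO_PD1 for 19 of the 20 liver-made genes, where 10.1% of all genes were separate and higher. Of the other 13, 4 were separate and lower, a share close to the 28.9% of all genes, and 1 was separate and higher. Hepatocyte markers lay in the direction of the liver-made genes (median log2 difference 1.80, 16 of 19 separate). So did markers of Kupffer cells, the resident macrophages of liver (median 1.47, 5 of 5 higher, 0 separate), and of neutrophils (median 1.67, 6 of 6 higher, 3 separate). The mean log2(TPM + 1) of the Kupffer cell markers was 4.74, 6.01 and 5.95 in Cre_PD1 and 8.13, 5.54 and 7.49 in MKO_PD1, and that of the neutrophil markers was 3.75, 4.30 and 3.30 in Cre_PD1 and 4.33, 6.23 and 5.10 in MKO_PD1. MKO_PD1 replicate 2 thus lay within the controls for Kupffer cell markers and was the highest library for neutrophil markers. Tumour epithelium markers lay in that of the lower members (median -1.49, 5 of 8 separate), and the part of any of these lists in the members' differences was not tested beyond the ratios given below.

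**Figure D1:**
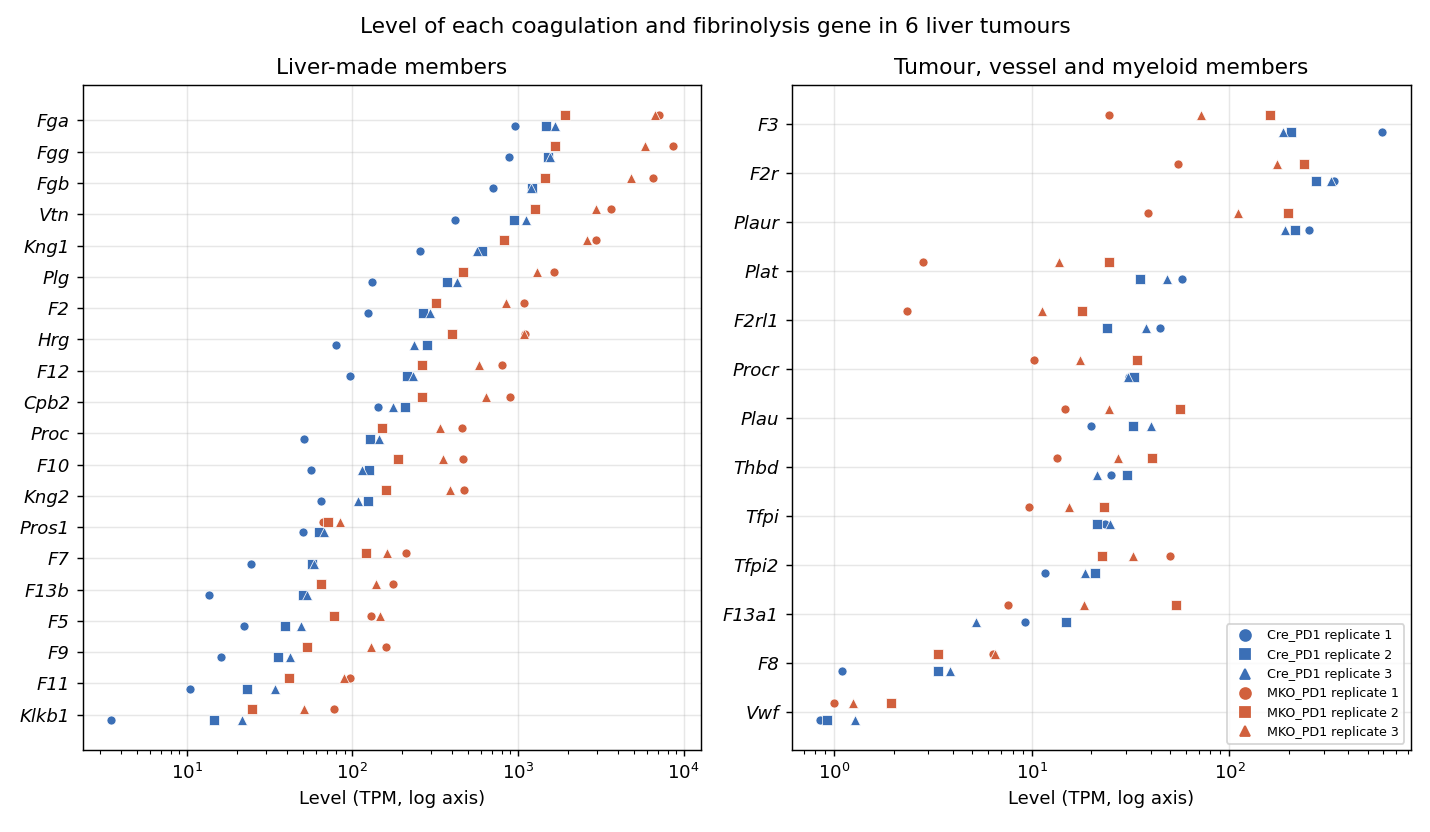
Level of each member in the 6 libraries, in TPM on a log axis, with blue for Cre_PD1, orange for MKO_PD1 and the symbol shape for the replicate. On the left the 3 orange symbols lie to the right of the 3 blue ones for 19 of 20 liver-made genes, and on the right MKO_PD1 replicate 1 is the lowest library for 9 of 13 genes.

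No member passed an adjusted p of 0.05 in the limma fit over all genes, in which 2 of 16506 genes did (0.0121%). The members' limma adjusted p ran from 0.168 to 0.948, and 23 members shared the value 0.168. At an unadjusted p under 0.05 there were 20 members higher (19 liver-made genes and Tfpi2), where 8.47% of all genes were higher at that level. At the same level 4 members were lower, where 19.5% of all genes were. Without MKO_PD1 replicate 2, 27 of 32 members tested (Vwf was under the filter) passed limma's adjusted p of 0.05. These were 19 liver-made genes and Tfpi2, which were higher, and F3, F2r, F2rl1, Plat, Plaur, Procr and Tfpi, which were lower, where 7.88% of all genes passed as higher and 38% as lower. Without MKO_PD1 replicates 1 and 3, the median of the liver-made genes was 0.75 and that of the other members 0.05, and no member passed.

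**Figure D2:**
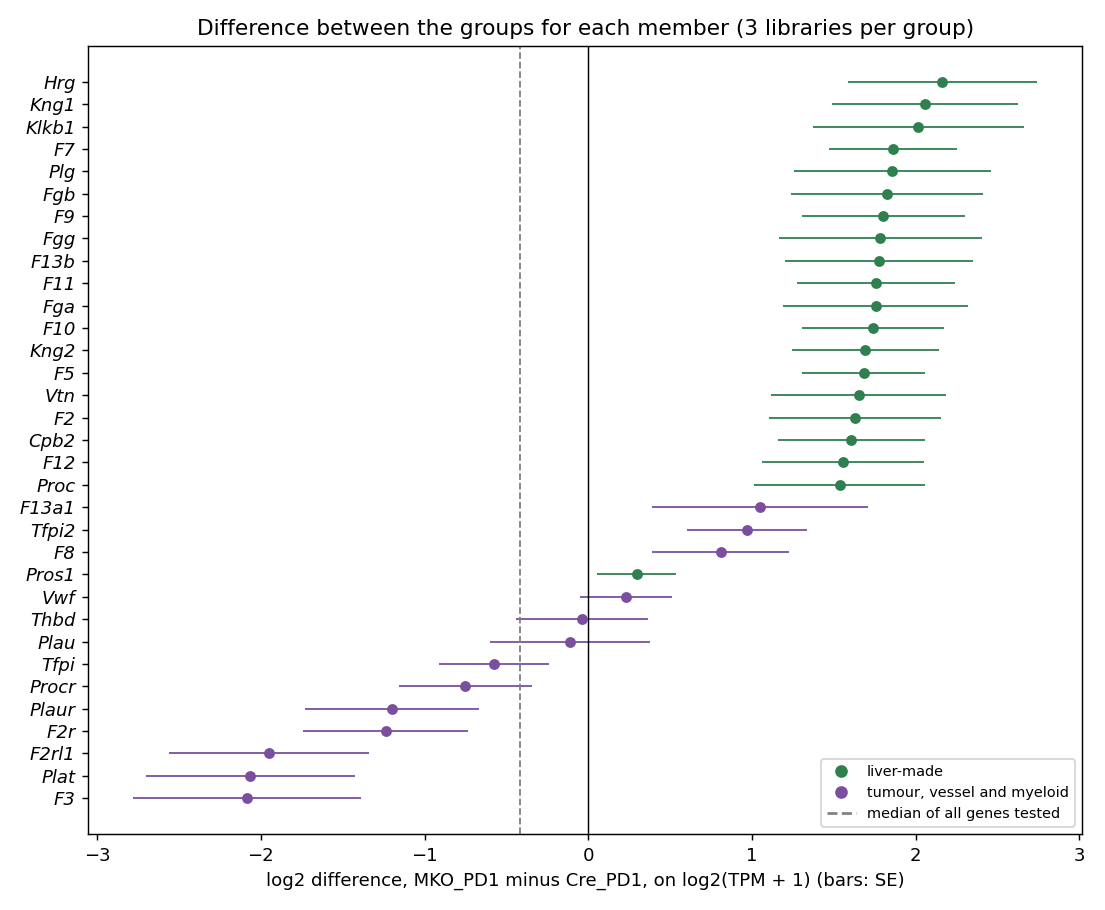
Log2 difference, MKO_PD1 minus Cre_PD1, of each member on the log2(TPM + 1) scale, with bars of 1 standard error from the limma fit (3 libraries per group), green for liver-made genes and purple for the others. The liver-made genes other than Pros1 lie between 1.54 and 2.16, Pros1 lies at 0.30, and the other members run from -2.08 (F3) to 1.05 (F13a1) around the dashed line at the median of all genes, -0.42.

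The liver-made genes kept nearly the same order of libraries. Cre_PD1 replicate 1 was the lowest library for 20 of 20 genes, and MKO_PD1 replicate 1 was the highest for 18. MKO_PD1 replicates 1, 3 and 2, in that order, were the top 3 libraries for 18 genes. MKO_PD1 replicate 2 lay above every Cre_PD1 library for 20 of 20. Together the 20 genes made up 0.411, 0.777 and 0.817% of the TPM of the Cre_PD1 libraries, against 3.69, 0.982 and 2.93% in MKO_PD1. MKO_PD1 replicate 2 exceeded the highest control by much less than the other MKO_PD1 libraries did.

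The fibrinogen chains were the most abundant members, and Fga ranked 86th among all genes by its mean in Cre_PD1. Fibrinogen is the soluble precursor of the fibrin mesh, built from an alpha, a beta and a gamma chain. The genes lie side by side on chromosome 3 of the mouse build GRCm38, Fgg at 83007724 to 83015049, Fga at 83026076 to 83033627 and Fgb, on the opposite strand, at 83040141 to 83049863. Promoters of Fga and Fgb are shown and that of Fgg is not, although the levels of all the chains kept together across libraries. Those shown cover 250 bases before to 50 after the start site (RefSeq, GRCm38.p6). They lie at chr3:83025903-83026202 on the plus strand and chr3:83049814-83050113 on the minus strand. Both were picked after their values and matches were seen. Capitals mark GTTAAT, the core letters bound by the hepatocyte factor HNF1, and in Fgb also TGANTCA, the AP-1 motif, on either strand.
Fga: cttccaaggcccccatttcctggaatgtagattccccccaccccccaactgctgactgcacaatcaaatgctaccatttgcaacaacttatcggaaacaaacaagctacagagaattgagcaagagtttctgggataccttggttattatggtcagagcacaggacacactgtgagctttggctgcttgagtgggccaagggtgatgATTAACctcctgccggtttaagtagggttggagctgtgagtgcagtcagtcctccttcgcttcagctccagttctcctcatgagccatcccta
Fgb: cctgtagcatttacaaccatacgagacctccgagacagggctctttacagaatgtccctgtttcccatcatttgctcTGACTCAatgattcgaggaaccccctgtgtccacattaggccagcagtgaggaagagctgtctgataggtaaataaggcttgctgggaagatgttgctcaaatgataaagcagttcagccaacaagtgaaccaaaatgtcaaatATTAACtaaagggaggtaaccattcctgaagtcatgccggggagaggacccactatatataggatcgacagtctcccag

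The HNF1 motif began at base -43 in Fga and at base -29 in Fgb, counted along the gene's strand from its start site, and the AP-1 motif of Fgb began at base -173. Of the 17 liver-made members with a promoter in the RefSeq set, 5 held the HNF1 motif (29.4%; F13b, F2, Fga, Fgb and Vtn), where 7.2% of 27025 promoters of the same length did. Fgg was not among these 5. A longer hepatocyte motif, CAAAGTCC of HNF4A, was in 0 of the 17 and in 1.44% of all promoters. These matches describe letters within the window and were not tied to binding.

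Fga was at 963, 1485 and 1680 TPM in Cre_PD1 and at 7153, 1919 and 6744 TPM in MKO_PD1. Fgb was at 706, 1223 and 1203 TPM in Cre_PD1 and at 6572, 1464 and 4824 TPM in MKO_PD1. Fgg was at 883, 1509 and 1557 TPM in Cre_PD1 and at 8670, 1682 and 5831 TPM in MKO_PD1. For each chain the 3 MKO_PD1 libraries lay above the 3 controls, with replicate 2 only just above them. The log2 differences were 1.76 (SE 0.57) for Fga, 1.83 (SE 0.58) for Fgb and 1.79 (SE 0.62) for Fgg, each with a limma adjusted p of 0.168. The 3 chains together took 0.374 ± 0.103% of TPM in Cre_PD1 and 1.50 ± 0.892% in MKO_PD1 (SD, n = 3 each).

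The chains kept their proportions across libraries. Fga stood at 1.36, 1.21 and 1.40 times Fgb in Cre_PD1 and at 1.09, 1.31 and 1.40 times in MKO_PD1. Fgg stood at 1.25, 1.23 and 1.29 times Fgb in Cre_PD1 and at 1.32, 1.15 and 1.21 times in MKO_PD1. The highest of the 6 ratios exceeded the lowest by 1.28 times for Fga and 1.15 times for Fgg, whereas Fgb itself spanned 9.30 times. Fibrinogen was 56.9 ± 4.49% of the TPM of the liver-made members in Cre_PD1 and 57.2 ± 4.95% in MKO_PD1 (SD, n = 3 each). These within-library ratios, like all ratios of single genes below, were picked after the values were seen.

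Factor XIII cross-links fibrin, and of its subunit genes F13b was separate between the groups and F13a1 was not. F13b, the carrier subunit made by liver, was at 13.6, 50.1 and 53.4 TPM in Cre_PD1 and at 175, 64.9 and 140 TPM in MKO_PD1, a log2 difference of 1.78 (SE 0.57, limma adjusted p 0.168). F13a1, the catalytic subunit known from macrophages and megakaryocytes, was at 9.24, 14.9 and 5.25 TPM in Cre_PD1 and at 7.55, 53.7 and 18.4 TPM in MKO_PD1. MKO_PD1 replicate 2, the lowest of its group for F13b, was the highest for F13a1, and replicate 1 lay within the controls. The log2 difference of F13a1 was 1.05 (SE 0.66, limma adjusted p 0.281), and the groups overlapped. The mean log2(TPM + 1) of the 9 platelet markers was also highest in MKO_PD1 replicate 2 (3.13, against 1.74 to 2.21 in the controls). Pf4, the most abundant of them, was at 487 TPM there, and Gp1bb was at 0 in every library. Of the 7 tested, 6 were higher in MKO_PD1 and 1, Gp1ba, was lower (log2 difference -0.45). Taken as a difference from the macrophage marker mean or from the platelet marker mean of the same library, F13a1 overlapped between the groups (0.62 and 0.30 on the log2 scale). The mean log2(TPM + 1) of the 9 fibroblast and stellate cell markers was also highest in MKO_PD1 replicate 2. It was 4.69, 5.25 and 4.75 in Cre_PD1 and 3.84, 5.90 and 4.80 in MKO_PD1, and no ratio of F13a1 to it was taken. The part of platelets, macrophages or fibroblasts in F13a1 was not tested beyond the ratios given.

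The vitamin K-dependent factors are proteases and cofactors whose glutamates must be carboxylated before they bind membranes. Of 6 members, 5 were separate and higher, where 10.1% of all genes were, and the median log2 difference of the role was 1.69. F7, factor VII, which pairs with tissue factor, was at 24.3, 57.4 and 58.3 TPM in Cre_PD1 and at 211, 121 and 163 TPM in MKO_PD1. Its MKO_PD1 libraries all lay above 58.3 TPM, the highest control, and its log2 difference of 1.86 (SE 0.39, limma adjusted p 0.168) amounted to 3.63-fold. F10, factor X, lies next to F7 on chromosome 8 (F7 at 13026034 to 13035809, F10 at 13037308 to 13056676). It was at 56.3, 126 and 115 TPM in Cre_PD1 and at 468, 188 and 354 TPM in MKO_PD1, a log2 difference of 1.74 (SE 0.43).

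F2, prothrombin, the precursor of thrombin, was at 125, 266 and 296 TPM in Cre_PD1 and at 1093, 320 and 844 TPM in MKO_PD1. Controls reached almost to MKO_PD1 replicate 2, yet did not overlap it, and the log2 difference was 1.63 (SE 0.53, limma adjusted p 0.168). F9, factor IX, which activates factor X, was at 16.0, 35.8 and 42.0 TPM in Cre_PD1 and at 160, 53.1 and 130 TPM in MKO_PD1, a log2 difference of 1.80 (SE 0.50). Proc, protein C, which inactivates factors V and VIII, was at 51.1, 128 and 144 TPM in Cre_PD1 and at 462, 150 and 340 TPM in MKO_PD1, a log2 difference of 1.54 (SE 0.52). The groups were separate for both, each with a limma adjusted p of 0.168, and for Proc the highest control and MKO_PD1 replicate 2 nearly met.

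Pros1, protein S, the cofactor of protein C and a ligand of the TAM receptors, was the exception among the liver-made genes. It was at 50.6, 62.5 and 67.3 TPM in Cre_PD1 and at 66.4, 71.0 and 84.4 TPM in MKO_PD1. MKO_PD1 replicate 1, the highest library for most liver-made genes, lay within the controls for Pros1. The log2 difference was 0.30 (SE 0.24, limma adjusted p 0.388), and the 6 libraries spanned 1.67 times, against 8.76 times for F2. Against the macrophage markers of the same library Pros1 overlapped between the groups, with a difference of -0.13 on the log2 scale. Protein S is also made by endothelium and macrophages. No ratio of Pros1 to endothelium markers was taken, and the source of its transcript here was not tested.

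The contact system starts clotting on surfaces and releases bradykinin from kininogen. F11, factor XI, and Klkb1, plasma prekallikrein, lie next to each other on chromosome 8 (F11 at 45241174 to 45262031, Klkb1 at 45266689 to 45294859). Klkb1 was at 3.47, 14.5 and 21.7 TPM in Cre_PD1 and at 77.0, 24.7 and 50.8 TPM in MKO_PD1, a span of 22.2 times over 6 libraries. The groups were separate, and the log2 difference was 2.02 (SE 0.64, limma adjusted p 0.168). F11 was at 10.5, 23.1 and 33.9 TPM in Cre_PD1 and at 96.5, 41.3 and 89.0 TPM in MKO_PD1, a log2 difference of 1.76 (SE 0.48). F12, factor XII, which starts the contact pathway, was at 97.0, 213 and 231 TPM in Cre_PD1 and at 801, 264 and 583 TPM in MKO_PD1, a log2 difference of 1.56 (SE 0.49).

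Kng1 and Kng2 encode kininogens and lie beside Hrg on chromosome 16, Hrg at 22951072 to 22961656, Kng2 at 22985854 to 23029482 and Kng1 at 23057865 to 23082078. Kng1 was at 255, 606 and 567 TPM in Cre_PD1 and at 2959, 823 and 2600 TPM in MKO_PD1, a log2 difference of 2.06 (SE 0.57). Kng2 was at 64.8, 124 and 107 TPM in Cre_PD1 and at 473, 161 and 391 TPM in MKO_PD1, a log2 difference of 1.69 (SE 0.45). The groups were separate for both genes, with a limma adjusted p of 0.168 each. The copies are closely related in sequence, so the division of reads between them is uncertain, and their ratio of 3.93 to 5.28 in Cre_PD1 and 5.13 to 6.65 in MKO_PD1 overlapped between the groups.

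Factors V and VIII are the cofactors of the clotting proteases and came from different lists. F5, liver-made here but also known from megakaryocytes, was at 22.1, 38.9 and 49.1 TPM in Cre_PD1 and at 130, 77.4 and 148 TPM in MKO_PD1, a log2 difference of 1.68 (SE 0.38, limma adjusted p 0.168). F8, whose protein comes mainly from sinusoidal endothelium, was at 1.09, 3.36 and 3.87 TPM in Cre_PD1 and at 6.34, 3.33 and 6.50 TPM in MKO_PD1. MKO_PD1 replicate 2 lay within the controls for F8, and the log2 difference was 0.81 (SE 0.42, limma adjusted p 0.215). The 7 sinusoidal endothelium markers had a median log2 difference of 0.97, and F8 set against their mean in the same library differed by -0.03 between the groups, which overlapped. Lman1 and Mcfd2, the cargo receptor pair that carries factors V and VIII out of the endoplasmic reticulum, differed by 0.22 and 0.23 on the log2 scale.

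Plasminogen and its liver-made regulators were higher in MKO_PD1, with separate groups for all 4 genes (10.1% of all genes were separate and higher). Plg, plasminogen, was at 132, 371 and 426 TPM in Cre_PD1 and at 1644, 464 and 1311 TPM in MKO_PD1. The lowest MKO_PD1 library stood just above the highest control, and the log2 difference was 1.86 (SE 0.60, limma adjusted p 0.168). Cpb2, the carboxypeptidase that trims plasminogen binding sites from fibrin, was at 144, 208 and 175 TPM in Cre_PD1 and at 891, 262 and 637 TPM in MKO_PD1, a log2 difference of 1.61 (SE 0.45). Vtn, vitronectin, an adhesive glycoprotein of plasma and matrix, was at 416, 952 and 1110 TPM in Cre_PD1 and at 3667, 1271 and 2939 TPM in MKO_PD1, a log2 difference of 1.65 (SE 0.53).

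Hrg, histidine-rich glycoprotein, which binds plasminogen, heparin and fibrinogen, had the largest log2 difference of the 33 members, 2.16 (SE 0.58, limma adjusted p 0.168), or 4.48-fold. It was at 79.2, 281 and 235 TPM in Cre_PD1 and at 1102, 399 and 1086 TPM in MKO_PD1, with no overlap. The promoters of Hrg and Klkb1 are shown because, of the liver-made members with an entry in the RefSeq set, these had the largest log2 differences, chr16:22950822-22951121 on the plus strand and chr8:45294786-45295085 on the minus strand. Capitals mark the AP-1 motif TGANTCA in Hrg, from base -162, and the GC box GGGCGG, the letters bound by Sp1, read on the opposite strand in Klkb1, from base 4.
Hrg: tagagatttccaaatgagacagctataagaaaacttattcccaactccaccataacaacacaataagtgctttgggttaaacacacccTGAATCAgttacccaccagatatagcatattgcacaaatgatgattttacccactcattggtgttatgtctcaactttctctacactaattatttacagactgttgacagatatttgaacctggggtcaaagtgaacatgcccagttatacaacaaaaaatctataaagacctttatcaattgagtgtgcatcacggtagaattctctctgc
Klkb1: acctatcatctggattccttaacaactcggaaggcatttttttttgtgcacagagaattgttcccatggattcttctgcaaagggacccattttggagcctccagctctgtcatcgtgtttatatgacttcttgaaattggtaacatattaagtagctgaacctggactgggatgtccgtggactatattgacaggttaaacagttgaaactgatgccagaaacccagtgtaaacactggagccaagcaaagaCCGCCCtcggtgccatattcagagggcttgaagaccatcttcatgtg

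The AP-1 motif was in 3 of 17 liver-made promoters (17.6%; F2, Fgb and Hrg) and in 7.93% of all promoters of that length. The GC box was in 3 of 17 (17.6%; F5, Klkb1 and Pros1) and in 35.9% of all. Neither Hrg nor Klkb1 held GTTAAT or CAAAGTCC within the 300 bases, which says nothing of the factors that bind there.

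Set against the hepatocyte markers of the same library, most of the liver-made differences were small. The measure is the gene's log2(TPM + 1) minus the mean of the 19 markers, and it does not depend on the scaling of the library apart from the pseudocount. Over the 20 genes the median difference between the groups was -0.10, from -1.56 to 0.31, with 5 above 0 and 15 below. The groups overlapped for 16 genes. They were separate and lower for Pros1 (-1.56), Proc (-0.31) and F12 (-0.29), and separate and higher for Hrg (0.31). How many of all genes were separate on this measure, or on the marker ratios below, was not counted. No result about single genes is read from that separation.

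For Hrg the measure was -1.16, -0.96 and -1.19 in Cre_PD1 and -0.90, -0.90 and -0.57 in MKO_PD1, so the nearest libraries of the groups lay close together. For Pros1 it was -1.80, -3.11 and -2.98 in Cre_PD1 and -4.94, -3.38 and -4.24 in MKO_PD1, and Cre_PD1 replicate 1, the library with the fewest hepatocyte transcripts, was the highest. Summed, the liver-made members equalled 30.9 ± 1.77% of the summed hepatocyte markers in Cre_PD1 and 29.2 ± 1.89% in MKO_PD1 (SD, n = 3 each). The groups overlapped in that sum.

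**Figure D3:**
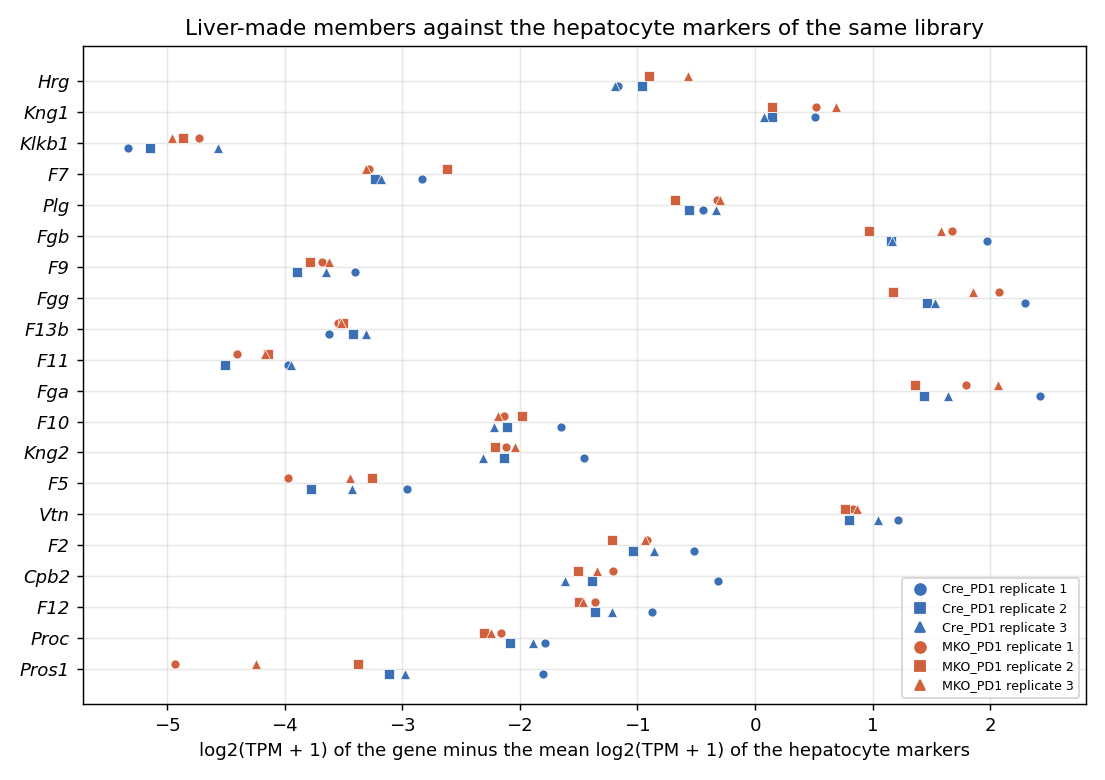
Log2(TPM + 1) of each liver-made member minus the mean log2(TPM + 1) of the 19 hepatocyte markers of the same library, with blue for Cre_PD1, orange for MKO_PD1 and the symbol shape for the replicate. Blue and orange symbols intermix for 16 of 20 genes, and Pros1 shows the largest difference between the group means, with the orange symbols between -4.94 and -3.38.

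Tissue factor and the thrombin-type receptors were lower in MKO_PD1, and no other gene of clot initiation was separate and lower. F3, tissue factor, the membrane receptor of factor VII and the trigger of clotting (chromosome 3, 121723537 to 121735048), was at 594, 204 and 187 TPM in Cre_PD1 and at 24.7, 160 and 72.1 TPM in MKO_PD1. Cre_PD1 replicate 1 was far above the other libraries, MKO_PD1 replicate 1 was the lowest, and the groups did not overlap. The log2 difference of -2.08 (SE 0.70, limma adjusted p 0.168) put Cre_PD1 4.24-fold higher, over a span of 24.1 times between the extreme libraries. The log2 difference was -1.55 without Cre_PD1 replicate 1 and -1.39 without MKO_PD1 replicate 1. Set against the tumour epithelium markers of the same library, F3 differed by -0.63 on the log2 scale, and the groups overlapped.

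F2r, the thrombin receptor PAR1, was at 339, 273 and 328 TPM in Cre_PD1 and at 54.9, 238 and 174 TPM in MKO_PD1. The groups were separate, with MKO_PD1 replicate 2 nearest the controls, and the log2 difference was -1.24 (SE 0.51, limma adjusted p 0.171), or -0.61 without MKO_PD1 replicate 1. F2rl1, encoding PAR2, which trypsin-like proteases and the tissue factor complex cleave, lies near F2r on chromosome 13 (F2rl1 at 95511732 to 95525227, F2r at 95601803 to 95618487). It was at 44.6, 24.1 and 38.0 TPM in Cre_PD1. In MKO_PD1 it was at 2.34, 17.9 and 11.3 TPM, all below the controls, a log2 difference of -1.95 (SE 0.61, limma adjusted p 0.168), or -1.22 without MKO_PD1 replicate 1. Its lowest value rested on 84 reads, the fewest of any member in any library.

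F2r lay close to the tumour epithelium markers in all 6 libraries. Its log2 level minus their mean was -0.04, -0.04 and 0.07 in Cre_PD1 and -0.02, 0.17 and 0.48 in MKO_PD1, a difference of 0.21 with overlapping groups. Against the macrophage markers F2r was lower in every MKO_PD1 library than in any control, by 1.67 on the log2 scale in the mean. F2rl1 set against the tumour epithelium markers differed by -0.50, again with overlap.

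The promoters of F3 and F2r are shown because, of the tumour, vessel and myeloid members with an entry in the RefSeq set, these had the largest log2 differences in size, chr3:121723287-121723586 on the plus strand and chr13:95618417-95618716 on the minus strand. Capitals mark the AP-1 motif and the GC box on either strand.
F3: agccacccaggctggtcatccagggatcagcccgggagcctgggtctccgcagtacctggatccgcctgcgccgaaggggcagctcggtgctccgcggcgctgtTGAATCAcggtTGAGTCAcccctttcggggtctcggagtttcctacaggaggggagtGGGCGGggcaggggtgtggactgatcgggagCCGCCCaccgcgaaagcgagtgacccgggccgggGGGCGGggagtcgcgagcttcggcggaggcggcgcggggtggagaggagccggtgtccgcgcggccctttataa
F2r: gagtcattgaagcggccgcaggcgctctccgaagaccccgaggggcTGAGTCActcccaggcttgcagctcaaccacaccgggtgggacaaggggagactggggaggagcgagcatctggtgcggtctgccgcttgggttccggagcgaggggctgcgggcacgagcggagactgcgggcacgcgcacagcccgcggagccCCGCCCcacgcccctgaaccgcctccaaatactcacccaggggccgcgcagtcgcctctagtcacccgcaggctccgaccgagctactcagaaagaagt

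F3 held AP-1 motifs from bases -146 and -135 and GC boxes from bases -89, -58 and -24. F2r held an AP-1 motif from base -204 and a GC box from base -49. Of the 8 members of tumour, vessel and myeloid cells with a promoter in the set, 4 held the AP-1 motif (50%; Procr, F3, Plaur and F2r), where 7.93% of all promoters did. The GC box was in 4 (50%; Tfpi, F3, Plaur and F2r), where 35.9% of all promoters held it. The HNF1 motif was in 1 of the 8 (12.5%), Tfpi2, and in 7.2% of all promoters, and CAAAGTCC was in 0 of the 8 and in 1.44% of all.

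The inhibitors of the tissue factor pathway did not go together. Tfpi, which blocks the tissue factor and factor VIIa complex, was at 23.5, 21.4 and 24.7 TPM in Cre_PD1 and at 9.70, 23.2 and 15.5 TPM in MKO_PD1, overlapping, with a log2 difference of -0.57 (SE 0.34, limma adjusted p 0.256), or -0.27 without MKO_PD1 replicate 1. Tfpi2, a related inhibitor deposited in the matrix, was at 11.7, 20.9 and 18.7 TPM in Cre_PD1 and at 50.2, 22.7 and 32.7 TPM in MKO_PD1. Its groups were separate, and it was the single member outside the liver-made list to be separate and higher (log2 difference 0.97, SE 0.36, limma adjusted p 0.168). F3 stood at 25.3, 9.55 and 7.56 times Tfpi in Cre_PD1 and at 2.54, 6.90 and 4.65 times in MKO_PD1.

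Thrombomodulin and the endothelial protein C receptor turn thrombin towards protein C activation. Thbd, thrombomodulin, was at 25.0, 30.4 and 21.3 TPM in Cre_PD1 and at 13.4, 40.3 and 27.3 TPM in MKO_PD1, on both sides of the controls, and its log2 difference of -0.04 (SE 0.40, limma adjusted p 0.948) was 0.42 with median-of-ratios scaling. Procr, the receptor, was at 31.2, 33.01 and 30.6 TPM in Cre_PD1 and at 10.2, 34.1 and 17.5 TPM in MKO_PD1. Replicate 2 of MKO_PD1 matched the controls for Procr and the other 2 were lower, a log2 difference of -0.75 (SE 0.41, limma adjusted p 0.229), or -0.36 without MKO_PD1 replicate 1.

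Vwf, von Willebrand factor, which tethers platelets to the vessel wall, was the least abundant member at 0.845, 0.923 and 1.28 TPM in Cre_PD1, against 0.997, 1.93 and 1.24 TPM in MKO_PD1. The groups overlapped (log2 difference 0.23, SE 0.28, limma adjusted p 0.553). Against the 8 vessel endothelium markers of the same library, whose median log2 difference was 0.51, Vwf differed by -0.20 and Thbd by -0.48, both with overlap.

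Of the plasminogen activators, the tissue-type enzyme was lower in MKO_PD1 and urokinase overlapped between the groups. Plat, the tissue-type activator, at 22757727 to 22782844 on chromosome 8, was at 57.6, 35.4 and 48.4 TPM in Cre_PD1 and at 2.82, 24.6 and 13.7 TPM in MKO_PD1. The groups were separate, and the log2 difference of -2.06 (SE 0.64, limma adjusted p 0.168) put Cre_PD1 4.18-fold higher. Without MKO_PD1 replicate 1 it was -1.28. Plat was also separate and lower against the tumour epithelium markers of the same library, at -2.58, -2.95 and -2.66 in Cre_PD1 and -3.90, -3.04 and -3.09 in MKO_PD1, although the nearest values lay close. Plau, urokinase, was at 20.0, 32.4 and 40.3 TPM in Cre_PD1 and at 14.8, 56.2 and 24.5 TPM in MKO_PD1. It was both lowest and highest in MKO_PD1, and its log2 difference of -0.11 (SE 0.49, limma adjusted p 0.873) was 0.34 with median-of-ratios scaling. Plat stood at 2.88, 1.09 and 1.20 times Plau in Cre_PD1 and at 0.191, 0.439 and 0.560 times in MKO_PD1, without overlap.

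Plaur, the urokinase receptor, was at 253, 215 and 192 TPM in Cre_PD1 and at 38.8, 197 and 110 TPM in MKO_PD1. MKO_PD1 replicate 2 reached into the controls, and the log2 difference was -1.20 (SE 0.53, limma adjusted p 0.182), or -0.56 without MKO_PD1 replicate 1. Plaur set against the tumour epithelium markers differed by 0.25 with overlap, and against the macrophage markers it was separate and lower by 1.62 on the log2 scale. The macrophage markers themselves had a median log2 difference of 0.51, with 8 of 9 above 0.

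**Figure D4:**
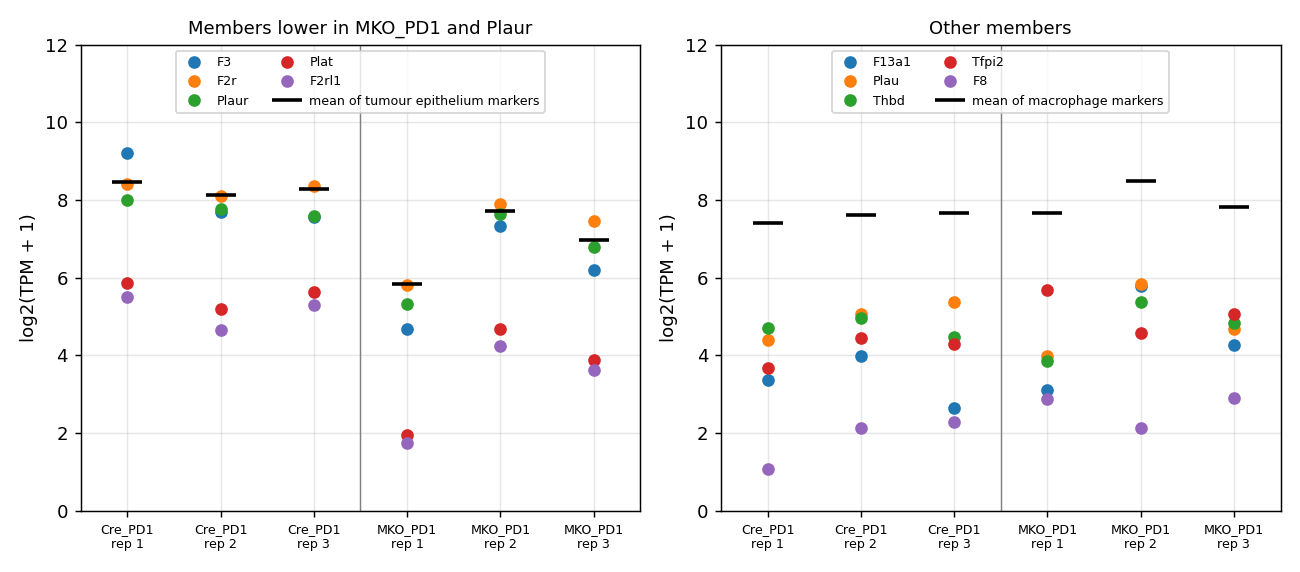
Log2(TPM + 1) of 10 members of tumour, vessel and myeloid cells in each library, 5 per panel, with black bars for the mean of the tumour epithelium markers (left) or of the macrophage markers (right). On the left F2r stays within 0.48 of the bar in every library while the distance of F3, Plat and F2rl1 to it differs between libraries, and on the right F13a1 is highest in MKO_PD1 replicate 2 and Tfpi2 in MKO_PD1 replicate 1.

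Of 10 inhibitors, proteases and carboxylation enzymes outside the 33, listed as liver-made, all 10 were higher (median log2 difference 1.55), where 27.1% of all genes were. In this list 8 were separate and higher, where 10.1% of all genes were. The carboxylation enzymes had the smallest log2 differences of the list, 0.58 and 0.76, and their source was not tested. By limma 0 passed the adjusted p, and 7 were higher at an unadjusted p under 0.05, where 8.47% of all genes were. Serpinc1, antithrombin, was at 49.9, 119 and 140 TPM in Cre_PD1 and at 559, 153 and 395 TPM in MKO_PD1, a log2 difference of 1.77. Serpind1, heparin cofactor II, was 4.01-fold higher. Log2 differences were 1.79 for Proz, protein Z, 1.61 for Serpina10, the protein Z-dependent inhibitor, 1.49 for Serping1, the C1 inhibitor, and 1.48 for Habp2, a plasma serine protease (limma adjusted p 0.168 for all 6). F2 stood at 2.12 to 2.50 times Serpinc1 in Cre_PD1 and at 1.95 to 2.14 times in MKO_PD1, and the groups overlapped.

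Of 12 other pathway genes, made by cells other than hepatocytes or by cells in general, 7 were lower, where 72.9% of all genes were, and 5 were higher. Their median of -0.13 lay above the -0.42 of all genes. In this list 3 genes were separate and lower, a share near the 28.9% of all genes, and 1 was separate and higher (10.1% of all genes). Anxa2 and S100a10 encode the subunits of a plasminogen receptor. Anxa2 was at 2509, 1857 and 1434 TPM in Cre_PD1 and at 204, 922 and 701 TPM in MKO_PD1, a log2 difference of -1.88 (SE 0.57), and S100a10 differed by -1.37 (SE 0.46), both separate with a limma adjusted p of 0.168. Lrp1, an endocytic receptor that clears proteases, differed by 0.61 (SE 0.27, limma adjusted p 0.182), Serpine2 by -0.70 and F2rl2, encoding PAR3, by 0.58, all with overlapping groups.

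The spread within the groups differed between the lists. For the liver-made genes the median SD of log2(TPM + 1) was 0.69 in Cre_PD1 and 0.83 in MKO_PD1. For the other members it was 0.35 in Cre_PD1 and 0.94 in MKO_PD1, where replicate 1 was the lowest library for 9 of the 13. Summed, those 13 genes took 0.109 ± 0.0281% of TPM in Cre_PD1 and 0.0545 ± 0.0318% in MKO_PD1 (SD, n = 3 each). The lowest Cre_PD1 library (0.0909%) lay just above the highest MKO_PD1 library (0.0873%).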

How the data were processed

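Polyadenylated RNA of 6 tumours was analysed from 1 deposited table. Per the submitters' processing notes, reads were aligned with STAR 2.7.10a to mm10 and counted with featureCounts 2.0.3 of Subread. The values the authors deposited are a length-normalised read signal that was not scaled to a fixed total (column sums 70363 to 105281). How they were made is not stated further. Values times GENCODE M21 exon length, divided by 1 constant (8.03), gave whole reads within 0.001 for 29354 of 29802 genes (98.5%), all 33 members included. One read on 1 kb was worth 0.0763 to 0.114 TPM.

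Each library was rescaled to 1000000 and analysed as log2(TPM + 1), a pseudocount of 1 that understates changes of low genes. Genes reaching 1 TPM in 3 or more libraries were tested with limma 3.58.1 in R 4.3.3 (mean-variance trend, no covariate), with Benjamini-Hochberg adjustment over 16506 genes and a threshold of 0.05. The procedure was tested on simulated counts with changes planted in genes picked at random. These had no shift in hepatocyte or tumour transcripts between libraries, so they do not show how the fit performs on the present libraries. With 3 against 3, an exact two-sided permutation test cannot go below 0.1, and p-values measure the spread between these samples.

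The members, roles, pathway genes and marker lists were chosen with earlier results of these data known. All 33 members are named, with up to 6 other pathway genes of each list by smallest p, of which 1 is not reported here. Groups are called separate where no library of one lies within the range of the other. Of the hepatocyte list, 19 of 20 symbols matched. Motifs were searched on both strands of RefSeq promoters, found for 25 members, with chromosome 18 left out. Alternatives changed the pseudocount, filter, scaling, trend, threshold, replicate block and libraries. Leaving out MKO_PD1 replicates 1 and 3 together, and limma voom on the recovered reads, were added after the data were seen.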

Additional observations from a re-analysis of the deposited data

How the results depend on the processing

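All 20 liver-made members stayed higher in MKO_PD1 under every alternative run, and no member passed the adjusted p except without MKO_PD1 replicate 2. Leaving out 1 library at a time gave 0 to 27 members past the threshold, medians of 1.37 to 2.16 for the liver-made members and -1.02 to -0.27 for the others. Without MKO_PD1 replicates 1 and 3, the libraries with the most hepatocyte transcripts, those medians were 0.75 and 0.054, and Procr was at 0.11, Tfpi at 0.00083, Thbd at 0.65, Plau at 0.90 and Serpine2 at 0.55. Thbd ran from -0.38 to 0.38 and Plau from -0.62 to 0.31 when 1 library was left out. Thbd also turned sign with median-of-ratios scaling (0.42), with hepatocyte and liver-made genes removed before scaling (0.089), without Cre_PD1 replicate 2 (0.090), without MKO_PD1 replicate 1 (0.38) and by voom (0.46). Plau did so with median-of-ratios scaling (0.34), with those genes removed (0.015), without Cre_PD1 replicate 3 (0.10), without MKO_PD1 replicate 1 (0.31) and by voom (0.42). The cause was not tested.

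With the replicate number as a block (replicate block), 0 members passed and the medians were 1.76 and -0.57. The deviations of same-numbered samples from their group means had correlations of -0.42, -0.26 and 0.05. Those of differently numbered samples ran from -0.23 to 0.39. Same-numbered samples did not deviate together, with -0.42 and -0.26 below every differently numbered value. Deviations within a group depend on each other, so the check cannot decide whether the numbers pair samples, and the labels state no pairing. The count of all genes past the threshold was 2 in the fit reported, 0 without a filter (30804 genes tested) or by voom, and 7314 of 15940 without MKO_PD1 replicate 2. Under a filter of 5 TPM, F8 and Vwf were not tested. The lowest value of a member rested on 84 reads, and without MKO_PD1 replicate 2 Vwf was not tested.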
